A study of Homo sapiens with 8 samples.

Results

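The regions described here are the m6A peaks that lay in the body of a long noncoding RNA (lncRNA) gene and touched no protein-coding gene body, in RNA bound to chromosomes, from HEK293T cells that have METTL3 or lack it. They were chosen by position alone. A peak was a member if it overlapped by at least 1 bp a gene that RefSeq on GRCh38.p14 calls lncRNA, on either strand, and overlapped no protein-coding gene. Of 29084 wild-type peaks 2055 were members, 7.07% of the list (95% exact interval 6.77 to 7.37), and of 23937 knockout peaks 1673, or 6.99% (6.67 to 7.32). Together 3728 of 53021 peaks were members. A further 1540 wild-type and 1210 knockout peaks lay in a lncRNA body that also overlapped a coding body there, and are left out. At the edge of the rule, 14 wild-type and 9 knockout members had their summit outside what the rule covers, and 91 and 71 other peaks lay within 1 kb of a lncRNA gene and touched no coding body.

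HEK293T is an established human embryonic kidney line. The groups were parental cells labelled WT and cells with METTL3 knocked out (METTL3-/-), each with 2 input and 2 m6A-IP libraries, 8 samples in 4 groups. All libraries were made from RNA of the chromosome fraction, freed of ribosomal RNA. The m6A-IP libraries were enriched with an m6A antibody kit. The sources used here do not say whether the knockout line is 1 clone. The files hold 1 peak list per genotype and no values per replicate, so no spread between replicates and no test of genotype can be given. The intervals below are exact 95% Clopper-Pearson intervals over peaks or genes and cover counting error only. Peaks of 1 gene share their transcript, so the intervals are too narrow as a measure of biological spread. The lists hold no expression values. The cell type could therefore not be checked against markers, and less RNA of a gene and less m6A on it cannot be told apart.

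Long noncoding RNAs are transcripts without a long reading frame, many of which stay at the chromatin where they are made. N6-methyladenosine is written on nascent RNA by a complex whose catalytic subunit is METTL3, and the letters GGAC are the core of its usual target motif. The nuclear reader YTHDC1 binds the mark, and chromosome-bound lncRNAs are among the RNAs known to carry it. METTL3 itself held 2 wild-type peaks and 0 knockout peaks. Of all coding genes with 2 wild-type peaks, 563 of 1757 (32.04%) had no knockout peak.

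Few members reached a gene start among the genes with a promoter window in RefSeq. RefSeq's table of promoters (GRCh38.p14, 250 bases before to 50 after a start) gave a strand for 925 of the 1470 lncRNA genes with a member. In wild type 33 of 2055 members (1.61%) overlapped such a window of a lncRNA gene and in the knockout 23 of 1673 (1.37%), of which 25 and 18 lay on the strand of the gene. These shares are over all members, also those in genes without a window, so they understate the share for genes with a window. The sequences below are the stretches covered both by a peak and by the promoter window. They are read on the strand of the peak with each GGAC in capitals. They show what bases the peaks at gene starts cover. The first 6 are the genes with the highest fold. ARHGAP11A-DT was chosen after its values were seen, because it has a peak in both lists and a GGACT. The coordinates of the printed stretches are chr17:40121791-40121951 (minus strand, LOC124904001), chr10:132536874-132537146 (minus, LOC107984282), chr5:154445773-154445841 (minus, SAP30L-AS1), chr9:62898038-62898059 (minus, LERFS), chr10:46598096-46598113 (minus, SYT15-AS1), chr9:65546974-65546987 (minus, LOC105379447) and chr15:32614697-32614844 (minus, ARHGAP11A-DT).
LOC124904001: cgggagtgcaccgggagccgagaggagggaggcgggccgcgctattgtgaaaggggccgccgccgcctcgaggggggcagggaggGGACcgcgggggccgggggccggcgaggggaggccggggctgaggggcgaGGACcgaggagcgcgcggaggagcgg
LOC107984282: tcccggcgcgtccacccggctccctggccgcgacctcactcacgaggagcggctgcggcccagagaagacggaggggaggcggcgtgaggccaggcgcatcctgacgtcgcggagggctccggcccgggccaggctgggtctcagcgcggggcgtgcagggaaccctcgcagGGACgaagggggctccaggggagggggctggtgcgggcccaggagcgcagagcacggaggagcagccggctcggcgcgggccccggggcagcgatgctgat
SAP30L-AS1: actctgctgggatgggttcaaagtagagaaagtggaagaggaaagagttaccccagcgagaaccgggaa
LERFS: catggctccctgaagccgctca
SYT15-AS1: ccgcggatcgcgctctgc
LOC105379447: tccggtacccaggc
ARHGAP11A-DT: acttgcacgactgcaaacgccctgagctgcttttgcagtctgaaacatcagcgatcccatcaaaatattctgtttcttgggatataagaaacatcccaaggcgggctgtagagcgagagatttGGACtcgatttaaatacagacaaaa

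The fold of a peak is the authors' own value, a ratio of IP to input at the point of highest signal (the summit). The peaks at LOC124904001, on the gene's own strand, had folds of 12.7 (wild type) and 17.6 (knockout), and the stretch shown holds GGAC at 2 places. SAP30L-AS1 was also covered in both lists (11.3 and 8.60), with no GGAC in the stretch. ARHGAP11A-DT had folds of 5.86 and 6.21. The other genes shown were covered in 1 list, with folds of 18.2 (SYT15-AS1), 16.5 (LOC105379447) and 13.8 (LOC107984282) in wild type and 11.9 (LERFS) in the knockout. LERFS and LOC105379447 lie around the centromere of chromosome 9 among near-identical copies, so the positions of their peaks are uncertain. The peak at LOC105379447 lay on the strand opposite to the gene, and the overlap there was 14 bases. Over all such stretches GGAC occurred 14 times in 3910 bases in wild type (3.58 per kb) and 16 times in 2708 bases in the knockout (5.91 per kb), of which 3 in each list were GGACT. Read on both strands, all 12914 lncRNA promoter windows held 3.49 GGAC and 0.9503 GGACT per kb, and 60.8% of such windows had at least 1 GGAC on a given strand. The stretches are mostly shorter than a window, so only the densities per kb can be set beside each other, and a match is a description of the letters, not a methylated site.

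Read support was lower in the members than in the lists as wholes. Whole IP reads were recovered from each fold and its p-value. The median wild-type member had 20 reads at its summit (quartiles 14 and 35), against 24 for all wild-type peaks and 26 for peaks in coding bodies. In the knockout the medians were 25, 30 and 32. Reads are not on the same scale in the 2 lists, since a wild-type IP read counted as 0.607 on the plus strand and 0.572 on the minus strand, and a knockout read as 0.479 and 0.438. The folds of the members hardly differed from the rest, with a median of 7.43 (quartiles 6.16 and 8.98) in wild type against 7.29 over all peaks, and 7.06 (5.82 and 8.65) against 7.06 in the knockout. The median width was 202 bp in wild type and 207 bp in the knockout.

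For each member it was asked whether the other list had a partner, meaning a peak of the same strand with 1 bp or more in common. In wild type 387 of 2055 members (18.8%, 17.2 to 20.6) had a knockout partner, where the whole list had 20.4% and peaks in coding bodies 21.3%. In the knockout 392 of 1673 members (23.4%, 21.4 to 25.5) had a wild-type partner, where the whole list had 24.8% and coding bodies 26.5%. The interval of the members includes the share of the whole list in both genotypes and reaches neither coding share. This order depended on which genes were counted. Where the gene had to lie on the strand of the peak, 22.0% of 1034 wild-type members (19.5 to 24.6) had a partner. In the knockout it was 25.5% of 899 members (22.7 to 28.5). Both are above the whole lists, with intervals that include the whole-list and the coding shares. That setting also drops genes of unknown strand. Members in exactly 1 such gene were shared in 12.9% (wild type) and 18.5% (knockout). Members on the strand opposite to their gene, also dropped, were shared in 22.0% and 27.0%. Among 390 pairs in which both peaks were members, the knockout fold was the higher in 197 (50.5%), and log2 of knockout over wild-type fold had a median of 0.00 (quartiles −0.49 and 0.49). Paired summits lay a median of 30 bp apart. The members were like all 5996 pairs in this, of which the knockout fold was the higher in 3051 (50.9%), with a median log2 of 0.01 and the same median distance.

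Sharing followed the number of reads. Of wild-type members with up to 15 reads 32 of 737 had a partner (4.34%), of those with 16 to 30 reads 102 of 705 (14.5%), with 31 to 60 reads 126 of 398 (31.7%), with 61 to 100 reads 91 of 154 (59.1%) and above 100 reads 36 of 61 (59.0%, 45.7 to 71.4). Coding peaks in the same classes had 5.38%, 11.9%, 27.7%, 48.8% and 70.9%. In wild type the members were thus above the coding peaks in the 3 middle classes and below them in the lowest and the highest. The members' interval excluded the coding share at 16 to 30 reads (11.95 to 17.3) and at 61 to 100 reads (50.9 to 66.9), and held it in the other classes. In the knockout the members had 5.04%, 13.3%, 31.5%, 50.5% and 70.1%, and coding peaks 5.77%, 13.3%, 27.9%, 46.8% and 71.4%, each within the interval of the members. If coding peaks had the read classes of the members, their share would be 17.2% in wild type and 22.4% in the knockout. These values are below the 18.8% and 23.4% of the members, whereas the plain coding shares were above them. The knockout value lies inside the members' interval (21.4 to 25.5). The wild-type value lies at the lower bound of theirs (17.2 to 20.6). The read classes were chosen after seeing the data.

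**Figure D1:**
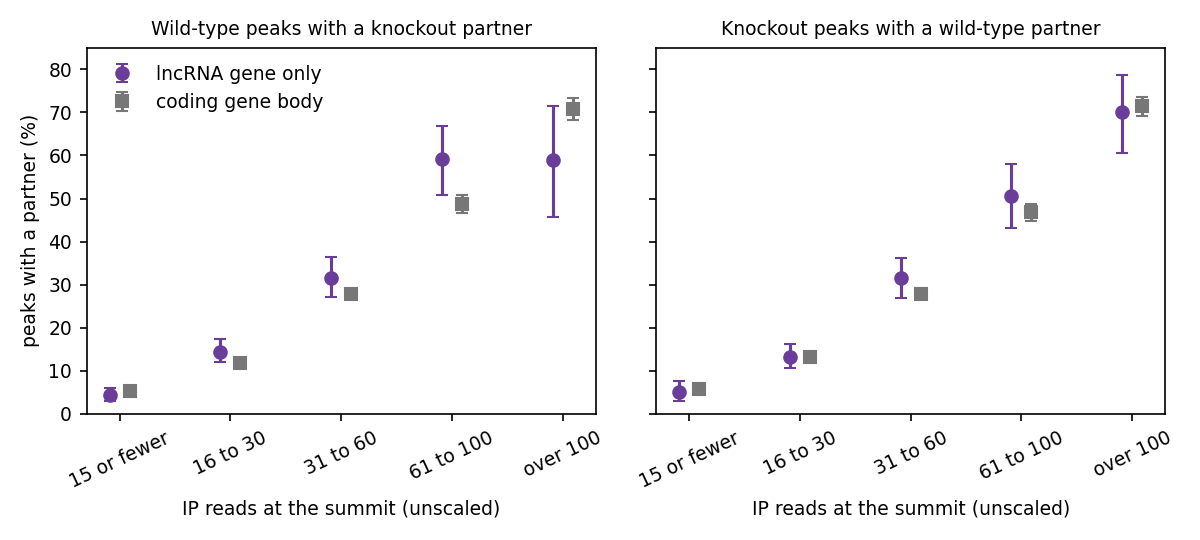
Share of peaks with a partner in the other list (%, y axis) by class of unscaled IP reads at the summit (x axis), for lncRNA-only peaks (circles) and peaks in coding gene bodies (squares), with exact 95% intervals. Both kinds climb from about 5% (4.34% and 5.38% in wild type) in the lowest class, and the members lie above coding peaks at 61 to 100 wild-type reads (59.1% against 48.8%).

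Most lncRNA genes with a member had members in 1 list alone. The 2055 wild-type members lay in 1032 lncRNA genes and the 1673 knockout members in 873, of the 18303 placed lncRNA genes in the table. Both lists had members in 435 genes, 597 genes had them in wild type alone and 438 in the knockout alone. Thus 57.8% of the wild-type genes (54.8 to 60.9) had no knockout member, where among coding genes of the wild-type list 32.8% lacked a knockout peak. In the other direction it was 50.2% (46.8 to 53.5), against 23.6% of coding genes. LncRNA and coding genes are not counted alike here and below. Only members count for a lncRNA gene, whereas every peak in its body counts for a coding gene. A lncRNA gene without a knockout member can still hold a knockout peak that also touches a coding body. This can raise the lncRNA shares, by an amount that was not measured. Over all lncRNA genes, 246 had at least 1 wild-type member with a partner. The partner did not have to be a member or lie in the same gene, so these were not counted among the 435.

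Most genes held 1 peak. In wild type 657 genes (63.7%) and in the knockout 577 (66.1%) had 1 member, 99 and 75 had 5 or more, and 26 and 20 had 10 or more. Among lncRNA genes with 1 wild-type member 71.4% had no knockout member. Among coding genes with 1 wild-type peak 52.4% had no knockout peak. At 2 peaks the shares were 48.0% and 32.04%, and at 3 to 4 peaks 25.7% and 15.1%. At 5 or more peaks they were 18.2% (18 of 99, 11.1 to 27.2) and 2.71% (36 of 1327). The lncRNA share was the higher in each of these classes, but the peaks of single-peak lncRNA genes rested on fewer reads, a median of 15 against 25 in coding genes. The part of the reads, and of the peaks that the rule leaves out, in this difference was not tested. From the knockout side 63.8% of lncRNA genes with 1 member had no wild-type member and 2 of 75 with 5 or more (2.67%, 0.325 to 9.30). Among coding genes 37.8% and 1.80% had no wild-type peak.

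Peaks in genes with many peaks were the ones most often shared. Of wild-type members in exactly 1 lncRNA gene, 12.5% had a partner in genes with 1 peak (median 15 reads) and 26.5% in genes with 10 or more (median 30 reads). In the knockout the shares were 16.7% (18 reads) and 34.7% (47 reads). Read support and peak number therefore moved together, and their parts were not separated.

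The gene with most members was LOC107985962, a gene of 244 kb on chromosome 2 from 175595435 to 175839038. There were 29 peaks in it in wild type and 26 in the knockout, and 17 of either list were shared. All 29 wild-type and 25 of 26 knockout peaks lay on the plus strand, whereas the gene is annotated on the minus strand. Wild-type folds ran from 2.88 to 16.6 (median 6.74) and knockout folds from 4.16 to 14.5 (median 7.05).

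MIR924HG, the host gene of the microRNA miR-924 on chromosome 18, spans 545 kb, with 22 peaks in wild type and 23 in the knockout, all on its own minus strand and 7 shared. The highest fold of any member, 34.3, was a knockout peak of this gene, and the highest wild-type fold in it was 22.9. DLEU1, from a region of chromosome 13 that is often lost in chronic lymphocytic leukaemia, held 23 and 21 peaks with 10 shared, 21 and 20 of them on its own plus strand. It overlaps DLEU2 in part, and 6 wild-type and 3 knockout peaks lay in both. LINC01515 on chromosome 10 held 20 and 17 peaks, all on its own plus strand and 7 shared. LOC105379102 on chromosome 5 held 18 and 15, all on its own minus strand and 6 shared.

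DANT1 and DANT2 flank and cross DXZ4, an array of tandem repeats on the X chromosome, and overlap each other. Together they had 21 peaks in wild type and 20 in the knockout. In each list 16 of these lay in both genes, and 16 were shared. DANT1 is on the plus strand and held 16 peaks in either list, 14 of them on its own strand. Along 37.96 kb of it, 13 shared plus-strand summits followed each other at a median distance of 2994 bp in wild type and 2988 bp in the knockout, and 10 of 12 distances were between 2800 and 3300 bp. This regular spacing is visible in the map of summits along the genes. The repeat units are near-identical, so which unit a read came from is uncertain. Over all 16 peaks of DANT1 the median was 59 reads in wild type and 116 in the knockout, where all members had medians of 20 and 25.

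LINC02994 on chromosome 4 had 21 peaks in wild type and 8 in the knockout, 3 of them shared, and LOC102723724 on chromosome 6 held 12 and 17 with 8 shared. MIR3171HG on chromosome 14 was the gene among these 10 with the largest excess in the knockout, with 6 and 20 peaks and 1 shared. Its knockout peaks had a median of 77.5 reads and its wild-type peaks 13.5.

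**Figure D2:**
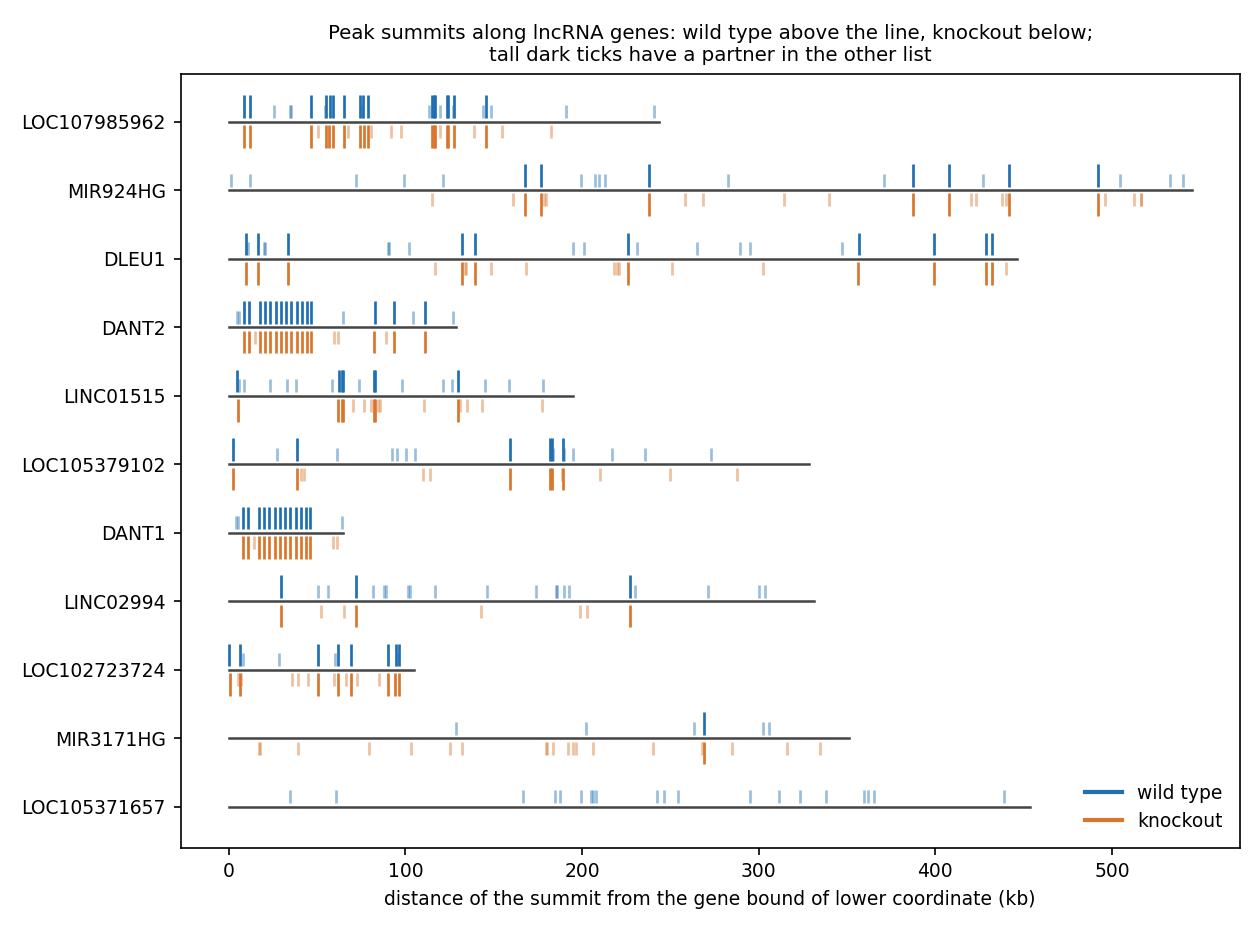
Summits of the members along the 10 genes with most of them and along LOC105371657, in kb from the bound of lower coordinate (x axis), wild type above and knockout below each line. Tall dark ticks have a partner in the other list: 17 in LOC107985962, 13 evenly spaced ones in DANT1, and none in LOC105371657, which has 20 wild-type ticks and 0 knockout ticks.

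Genes with many peaks in 1 list alone were mostly wild-type genes, 18 against 2. The 18 genes with 5 or more wild-type and 0 knockout members were led by LOC105371657 on chromosome 1 (189149763 to 189603580, 454 kb) with 20 peaks, 19 of them on the plus strand, folds from 4.71 to 19.3 (median 7.61) and a median of 17.5 reads. LINC01036 followed with 12 peaks on the same chromosome (187092842 to 187360244), then LOC102724858 on chromosome 8 with 11, LOC105373592 on chromosome 2 with 10 and LINC02315 on chromosome 14 with 9. Some of the 18 lie close together. LOC105371953 (7 peaks) and LINC00470 (5) are neighbours on chromosome 18, and LOC102724858 and LOC107986952 (6) lie close together on chromosome 8. The 141 peaks of the 18 genes had a median of 20 reads and a median fold of 8.11, and 7 had over 60 reads. The 668 peaks of the 81 other genes with 5 or more had medians of 28 reads and 7.21, and 133 had over 60 reads. MIR4435-2HG, with 8 and 0 peaks, and CYTOR, with 3 and 0, are near-identical copies of each other, so their reads are uncertain. In the other direction LOC101930100 (0 and 6) and KC6 (0 and 5) were the 2 genes with 5 or more knockout members alone.

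**Figure D3:**
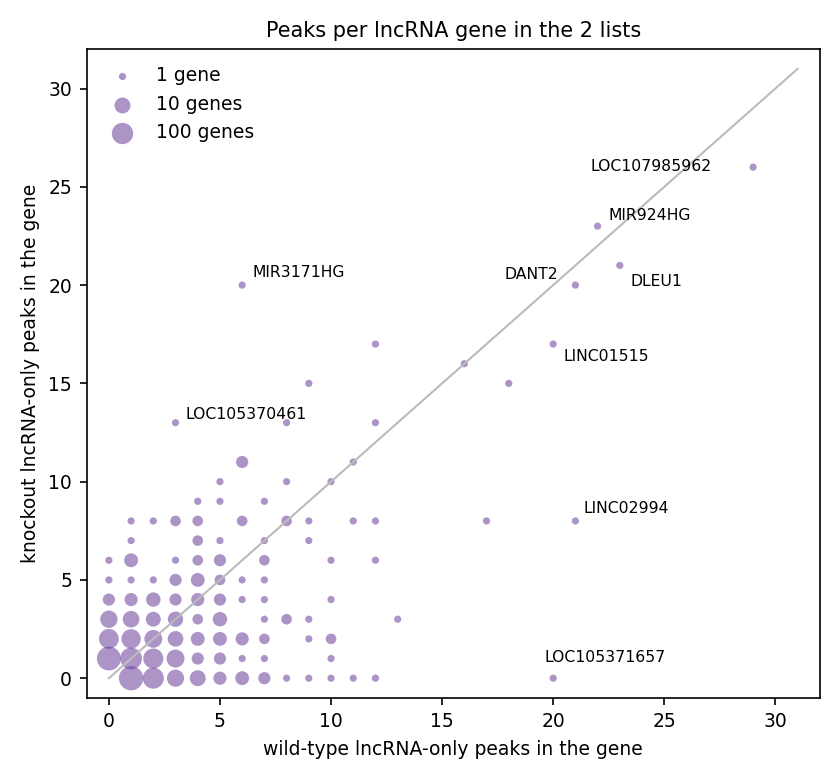
Number of wild-type (x axis) and knockout (y axis) members in each lncRNA gene with at least 1, with dot size for the number of genes at a place and a line of equality. LOC105371657 stands at 20 and 0, MIR3171HG at 6 and 20 and LINC02994 at 21 and 8, while LOC107985962 (29 and 26) and DLEU1 (23 and 21) lie near the line.

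Single peaks were ranked by fold among those in exactly 1 lncRNA gene (1928 in wild type, 1555 in the knockout). Peaks in 2 or more lncRNA genes (127 and 118) were not ranked. The wild-type-only peak of highest fold was in LINC02609 at chromosome 1, 90824570 to 90824907, with a fold of 24.0 on 57 reads, on the gene's own strand. That gene had 3 peaks in wild type and 0 in the knockout. LOC107986221 followed with 23.6 on chromosome 4, on the strand opposite to the gene, then LOC107984035 on chromosome 9 (23.02), DLEU1 (21.1) and LOC124902170 on chromosome 9 (20.4). The chromosome 9 genes lie around the centromere among near-identical copies, which leaves their positions uncertain. LOC124902649, LOC105375044, LOC105371657, LINC01414 and LOC107986061 ranged from 19.6 to 18.5.

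Of the shared peaks the highest wild-type fold was 24.2 in MGC27382 at chromosome 1, 78331936 to 78332343, on 66 reads, with a knockout fold of 20.2 on 50 reads. It lay opposite to the gene. LOC107985278 on chromosome 19 had 23.7 in wild type and 7.15 in the knockout, LINC02994 22.98 and 10.7, and MIR924HG 22.9 and 5.05. LOC101927830 near the end of the X chromosome had 21.0 and 13.0, and LOC105377862 on chromosome 6 had 20.3 and 14.1, both opposite to their genes. APRG1, SYS1-DBNDD2, TMLHE-AS1 and LINC01876 had wild-type folds from 19.9 to 18.7 and knockout folds from 6.45 to 16.3. The knockout fold was the lower in each of these 10, which were ranked by the wild-type fold, so nothing is read from that.

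Knockout-only peaks were led by LOC107987100 on chromosome 9, 94510183 to 94510507, with a fold of 21.5 on 96 reads in a gene with 0 wild-type and 2 knockout peaks. LINC02542 on chromosome 6 had 20.1, MIR3171HG 19.8 on 152 reads, and FBXL19-AS1, a gene of 3.95 kb on chromosome 16, 18.9. LOC124904088 (17.5), NR2F1-AS1 (16.7) and LOC105379066 (16.5) followed. NR2F1-AS1 is transcribed next to the nuclear receptor gene NR2F1, with 4 peaks in wild type and 7 in the knockout, 2 of them shared. XIST (16.3), LOC107986064 (16.1) and LOC105372586 (15.5) were last. The XIST peak lay on the plus strand, opposite to XIST, and 0 wild-type members lay in that gene.

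The symbol of a gene tells how well it is known, as LOC symbols are placeholders and LINC symbols are given to intergenic lncRNAs. Of wild-type members in exactly 1 gene 851 (44.1%) lay in LOC genes, 417 (21.6%) in LINC genes and 660 (34.2%) in genes with other symbols. In the knockout the counts were 738 (47.5%), 280 (18.0%) and 537 (34.5%). Partners were found for 17.3% (14.8 to 19.98) of LOC peaks, 18.0% (14.4 to 22.0) of LINC peaks and 20.3% (17.3 to 23.6) of other peaks in wild type, with intervals that overlap. In the knockout the shares were 20.2% (17.3 to 23.3), 27.9% (22.7 to 33.5) and 24.95% (21.3 to 28.8), where the LOC and LINC intervals overlap only narrowly. LOC peaks had the fewest reads, with medians of 18 in wild type and 22 in the knockout, against 21 and 29 in both other classes. Of the genes in the table, 4.12% of 12385 LOC genes, 8.06% of 2309 LINC genes and 9.31% of 3609 others had a wild-type member. Genes wholly inside coding bodies are counted in these totals but cannot hold a member.

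The lists of genes by kind of symbol also count peaks that lie in more than 1 lncRNA gene, 1 time for each gene of the list. Of all 18303 placed lncRNA genes 1032 had a wild-type and 873 a knockout member, and 18.8% and 23.4% of all members were shared. The totals of genes given here also count genes wholly inside coding bodies, which cannot hold a member. Antisense (-AS) genes held 251 wild-type and 214 knockout members in 151 and 125 of 2047 genes, with 40 shared in each list (15.9% and 18.7%). WARS2-AS1 held 9 and 3, NR2F1-AS1 4 and 7, ZFHX3-AS1 3 and 8, and NUTM2A-AS1 5 and 6. Divergent transcripts (-DT), which start next to a coding gene and run away from it, held 150 and 114 members in 81 and 70 of 592 genes, with 21 shared. TMEM161B-DT held 7 and 2, GMDS-DT 7 and 6 and FAM86B2-DT 7 and 9. MicroRNA host genes held 88 and 79 members in 19 and 14 of 87 genes, with 21 shared (23.9% and 26.6%). Beside MIR924HG and MIR3171HG these included MIR2052HG (11 and 8), MIR99AHG (10 and 6), MIR646HG (4 and 5) and MIR31HG (5 and 2). No member overlapped an annotated microRNA, so the peaks lay in other parts of the host transcripts. Hosts of small nucleolar RNAs (SNHG) had 5 wild-type members in 2 of 29 genes, SNHG31 and SNHG22, and 0 knockout members. Intronic and overlapping transcripts had 1 member in each list, in WDR7-OT1 in wild type and in SOX2-OT in the knockout.

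Of the X inactivation centre, FTX and JPX, which promote the expression of XIST, held 6 and 11 and 6 and 8 members with 3 shared in each. Of FTX peaks 6 and 10 lay on its own minus strand, and of JPX peaks 5 and 7 on its own plus strand. Among 29 nuclear and cancer-linked lncRNAs of a list, 10 had wild-type and 11 knockout members, 9 of them both. Summed over these genes, they held 62 and 54 members, of which 25 in each list were shared (40.3% and 46.3%). Of all members 18.8% and 23.4% were shared. The 6 wild-type and 3 knockout peaks in both DLEU1 and DLEU2 are counted for each gene, so the sums are not of distinct peaks. DLEU1 and FIRRE gave 17 of the 25. FIRRE, an X-linked lncRNA that takes part in the folding of the X chromosome, held 12 and 13 members on its own strand with 7 shared. DLEU2 held 10 and 4 with 3 shared, which are also among the shared peaks of DLEU1. CDKN2B-AS1, at the locus of the cell cycle inhibitors p15 and p16, held 4 and 5 with 1 shared. PVT1, next to MYC, held 3 and 4 with 1 shared, and LINC-PINT 2 and 2 with 0 shared. MALAT1, an abundant RNA of nuclear speckles, held 3 and 1 with 1 shared and low folds, at most 2.42 in wild type and 1.25 in the knockout, the lowest fold of any knockout member. None of the 17 genes of imprinted loci in the table had a member. Of all 18303 lncRNA genes 1032 (wild type) and 873 (knockout) had one, so nothing is read from 0 among so few genes. KCNQ1OT1 and SNHG14, 2 of the 17, lie across coding genes in the genome and so can have peaks that the rule leaves out.

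Longer genes held more members, but sharing hardly changed with length. Of lncRNA genes under 10 kb 1.91% had a wild-type member, of those of 10 to 50 kb 6.07%, of 50 to 200 kb 17.9% and of 200 kb or more 34.9% (123 of 352). In the knockout the shares were 1.59%, 5.26%, 15.3% and 27.3%. All placed lncRNA genes were counted here, also any wholly inside coding bodies, which cannot hold a member. The number of such genes in each class was not measured, so their part in the trend was not tested. Wild-type genes with a member had on average 1.16, 1.48, 2.66 and 4.07 of them in these classes. Across genes with a member, Spearman's rho of length with the number of members was 0.361 in wild type (1032 genes) and 0.367 in the knockout (873 genes), as a description. By length class wild-type members had partners in 19.6%, 17.1%, 18.8% and 18.9%, and knockout members in 24.7%, 20.8%, 23.3% and 25.4%, with intervals that overlap throughout. Per Mb of sequence covered by lncRNA and no coding bodies (368 Mb) there were 5.59 wild-type and 4.55 knockout peaks, against 17.9 and 14.4 per Mb of coding bodies (1263 Mb).

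A larger share of members than of coding peaks lay on the strand opposite to the annotated gene. Of 1244 wild-type members in exactly 1 lncRNA gene of known strand 948 (76.2%, 73.7 to 78.5) lay on the gene's strand, where peaks in exactly 1 coding gene and no lncRNA gene did so in 94.4%. In the knockout it was 826 of 1074 (76.9%, 74.3 to 79.4) against 93.8%. Opposite-strand and own-strand members had overlapping intervals of sharing. Wild type gave 22.0% (17.4 to 27.1) against 21.4% (18.8 to 24.2), and the knockout 27.0% (21.6 to 33.0) against 24.8% (21.9 to 27.9). Members in genes whose strand the table does not give, 684 in wild type and 481 in the knockout, were shared in 12.9% (10.4 to 15.6) and 18.5% (15.1 to 22.3), so the share over all members is below that of both strand groups. Opposite-strand peaks in coding genes were shared in 14.1% (11.9 to 16.4) and 15.98% (13.6 to 18.6), below the 22.0% and 27.4% of own-strand coding peaks. LOC genes had the lowest own-strand share, 65.8% (wild type) and 66.3% (knockout), against 80.9% and 82.4% in LINC genes and 83.3% and 85.3% in the others. In microRNA host genes 58 of 59 wild-type and 41 of 41 knockout members lay on the gene's strand.

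Peaks of 1 gene mostly lay on 1 strand. Of 181 genes with 5 or more members over both lists, 137 had all of them on 1 strand. Of the 126 such genes with a known strand 79 had all members on their own strand, 17 all on the opposite strand and 30 on both. The 17 included LOC105377862 (6 wild-type and 11 knockout peaks), NPSR1-AS1 (5 and 9), LINC00308 (4 and 5), LINC00492 (4 and 4, with 3 wild-type peaks shared) and MGC27382 (5 and 3). Opposite-strand members lay within 10 kb downstream of the end of a coding gene of their own strand in 10.8% of wild-type (7.51 to 14.9) and 12.9% of knockout peaks (8.996 to 17.7). For own-strand members the shares were 3.16% (2.15 to 4.49) and 2.18% (1.297 to 3.42). Strand was known for 15843 of 20050 coding genes, so these shares are lower bounds.

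**Figure D4:**
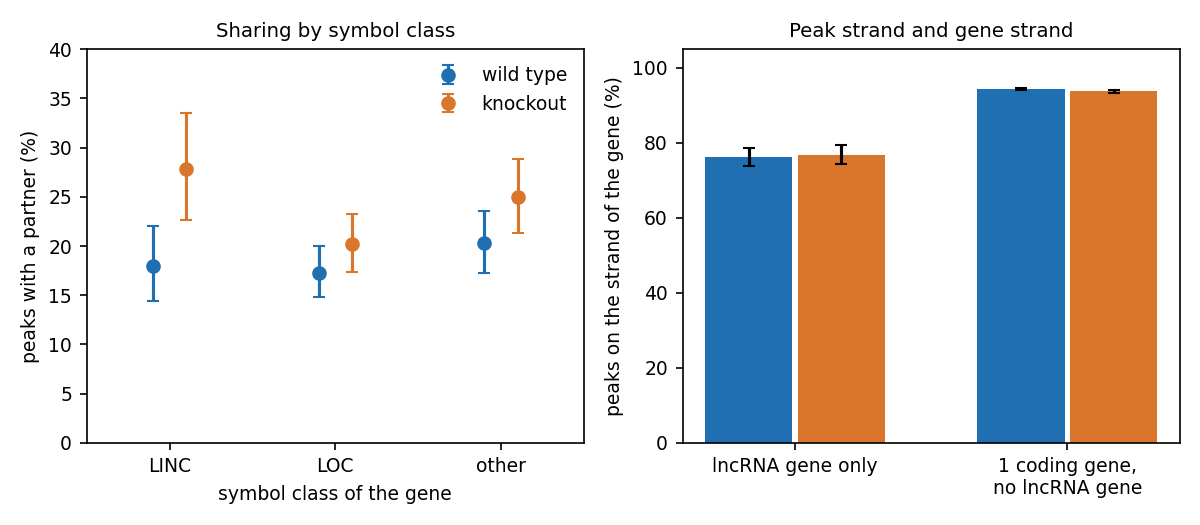
Left, share of members with a partner (%, y axis) by symbol class of the gene, in wild type and knockout, with exact 95% intervals: LOC genes have 17.3% and 20.2%, LINC genes 18.0% and 27.9%. Right, share of peaks on the strand of their gene (%, bars from 0, same intervals and colours), 76.2% and 76.9% for lncRNA-only peaks and 94.4% and 93.8% for peaks in 1 coding gene and no lncRNA gene.

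Along the gene, more own-strand members lay toward the 5′ end. The first 10% of the gene held 145 of 948 wild-type summits (15.3%) and 121 of 826 knockout summits (14.6%), and the last 10% held 7.70% and 6.05%. The same held in genes of 50 kb or more, where the first 10% had 13.97% and 13.7% and the last 5.97% and 4.86%. Stretches of a gene that overlap a coding body cannot hold a member. How they are spread along the genes was not measured, so their part in this order was not tested. Within 500 bp of the 5′ end lay 37 wild-type (3.90%) and 29 knockout members (3.51%), and within 500 bp of the 3′ end 25 (2.64%) and 13 (1.57%). The median summit was 29.2 kb and 28.6 kb from the 5′ bound. Sharing did not rise or fall steadily along the gene, with 19.3% of wild-type members shared in the first 10% of the gene, 29.4% between 20% and 30% of its length and 19.2% in the last 10%. Knockout members had 23.1%, 29.5% and 30% there.

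**Figure D5:**
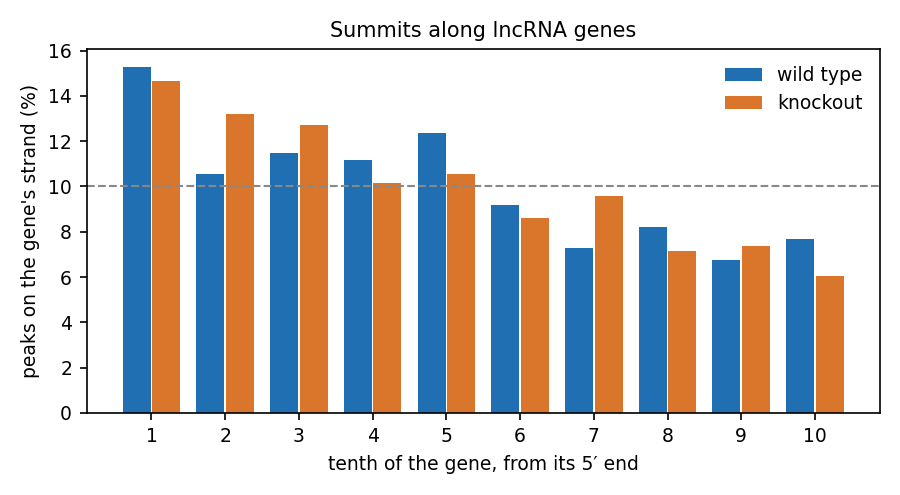
Share of own-strand members (%, y axis) in 10 equal bins of the gene from its 5′ end (x axis), in wild type (948 peaks) and knockout (826 peaks), with a dashed line at 10%. The first bin holds 15.3% and 14.6% and the last 7.70% and 6.05%. The dashed line is an equal share per bin and takes no account of stretches over coding bodies.

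The X chromosome had the most sharing. Of its 122 wild-type members 36.9% (28.3 to 46.1) had a partner and of its 113 knockout members 40.7% (31.6 to 50.4), against 17.7% and 22.2% of members on all other chromosomes. The median reads were also higher, 37 and 47 against 20 and 24. Without the peaks in DANT1, DANT2 and FIRRE, a choice made after seeing the data, 24.7% (16.2 to 35.0) of 89 and 28.75% (19.2 to 39.95) of 80 were shared, and the medians were 24 and 29 reads. Coding peaks on the X chromosome had 22.2% and 25.4%.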

How the data were processed

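The build hg38, MACS2 2.2.7.1, HISAT2 2.2.1 and SAMtools 1.15.1 are named per the submitters' processing notes, with no order or settings. The sources used here do not say how replicates were combined. The authors deposited 1 peak list per genotype in MACS2's layout. The deposited fold is a ratio of IP to local input, not logged, and the deposited −log10 p-value and −log10 q-value are the caller's. The deposited score is 10 times the −log10 q, without decimals, and was not used.

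Lists were joined with RefSeq GRCh38.p14 gene bounds in Python 3.11.15 (numpy 2.4.6, pandas 2.3.3, SciPy 1.17.1, matplotlib 3.10.9). Peaks on sequences outside the table's chromosomes (69 wild-type, 94 knockout) could not be members. Gene strand was taken from RefSeq's promoter table, which gives it for 11462 of the 18303 lncRNA genes and for none on chromosome 8. Results by strand and by position along the gene therefore leave that chromosome out. Reads per summit are the whole number k for which k times a scale, fitted per list and strand, gives the deposited p-value from the fold under MACS2's Poisson formula (within 0.002 plus 0.1% of −log10 p). It matched over 99.9% of peaks on each strand, 85.8% to 91.1% of them with a single k, and was tested on simulated data, as were the overlaps. The files do not state library totals.

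Named genes are the 10 peaks of highest fold, 1 per gene, among peaks of either list alone and shared peaks, the 10 genes with most members, up to 6 genes of each list and up to 6 genes with a peak over a promoter. Others named were chosen after their values were seen. The members and lists were chosen with earlier results of these data known.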

Additional observations from a re-analysis of the deposited data

How the results depend on the processing

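The 5 results recomputed were the shares of wild-type and knockout members with a partner, the shares of each list that are members, and the share of lncRNA genes with wild-type members that have no knockout member. Of 34 recomputed values 23 stayed inside the interval of the value reported and 11 moved. With 50% reciprocal overlap 15.9% of wild-type members and 19.5% of knockout ones had a partner (17.0% and 20.7% of the whole lists), and with summits within 100 bp to 15.7% and 19.4% (17.0% and 20.7%). With equal numbers of strongest peaks the knockout share was 20.9%. Members were 5.61% and 5.53% of the lists when no coding body could lie within 10 kb. When the gene had to lie on the strand of the peak, they were 3.56% and 3.76%, 22.0% of wild-type members had a partner and 54.6% of genes lacked a knockout member. That setting also drops every gene without a strand in the table. A −log10 q of at least 5, assignment by summit, and leaving out DLEU1, MIR924HG and LOC107985962 (added after seeing the data) moved none of the 5. No paired analysis was possible because the lists hold no values per replicate, and no replicate could be left out. Few reads stood behind many members: 35.9% of wild-type and 22.5% of knockout members had 15 or fewer IP reads, where about 1 in 20 had a partner (4.34% and 5.04%). Library depth was not varied, so its part in the sharing was not tested.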

Other observations

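The members were spread unevenly over chromosomes. They made up 17.8% of wild-type and 19.1% of knockout peaks on chromosome 21, against 7.07% and 6.99% of the lists, and 2.94% and 2.72% on chromosome 19. On chromosome 22 there were 30 wild-type and 11 knockout members, of 480 and 332 peaks in all (6.25% and 3.31%). The knockout had more members on chromosomes 11 (63 against 55), 14 (80 against 67) and 16 (46 against 44). The knockout list as a whole had fewer peaks on chromosomes 11 (972 against 1201) and 16 (624 against 823). On chromosome 14 the knockout list as a whole also had more peaks, 997 against 930, and the members there include 20 knockout and 6 wild-type peaks of MIR3171HG and 13 and 3 of LOC105370461. Pseudogene bodies lay under 104 wild-type (5.06%) and 69 knockout members (4.12%). The share over all peaks is not at hand, so nothing is read from these counts. Members lay within 1 kb of another member of the same strand and list in 11.3% in wild type and 10.2% in the knockout, where coding peaks did so in 10.3% and 10.2%.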
